A study of Mus musculus with 2 samples.

Results

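The 29 genes described here make, regulate or build on cholesterol and fatty acids. They were listed by name and not picked by their measured values, although earlier results of these data were known. The list holds 17 enzymes of cholesterol synthesis from acetoacetyl-CoA to 7-dehydrocholesterol reductase. It also holds 6 regulators of the SREBP transcription factors and 6 genes of fatty acid synthesis. All 29 symbols stood in the expression tables, among 20211 symbols in all, and 28 of them averaged 1 RPKM or more across the libraries, as did 10068 symbols of the whole tables, which are called the genes kept. RPKM is a read count scaled to transcript length and to the number of mapped reads of a library, so levels of different genes can be compared on it per length. The RNA came from cultured primary perivascular cells (PCs) of the C57BL/6 mouse aorta, with 1 library from wild-type animals (WT PCs) and 1 library from animals without Kai1, the gene Cd82 that encodes a membrane protein of the tetraspanin family (Kai1-/- PCs). Both cultures were grown in DMEM with 10% FBS according to the labels, whereas the study's methods give a higher share of FBS for primary perivascular cells, so the serum these cells received is uncertain. The labels name the genotype as Kai1 KO without the allele, and the study's methods describe adult mice, male or female, without saying which or how many gave each culture.

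Cells make cholesterol from acetyl-CoA along the mevalonate pathway, whose intermediates also feed the synthesis of isoprenoids, and they make fatty acids from the same acetyl-CoA. Transcription of both routes is driven by the SREBP factors, which are held in the endoplasmic reticulum with SCAP and the INSIG proteins while sterol is plentiful and are released and cut when sterol falls. In vascular mural cells cholesterol is a main lipid of the plasma membrane and of the ordered membrane domains called lipid rafts, and fatty acids supply the phospholipids of new membrane.

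The letters upstream of the gene starts show which of the promoter elements of this pathway the members carry, and 5 of them are printed because the results turn on them. RefSeq start sites on GRCm38.p6 were matched for 23 of the 29 members. For each of the 5 genes the 250 bases before the start are given 5′ to 3′ on the gene's strand. Capitals mark every match on either strand to the sterol regulatory element TCACNCCAC, to CCAAT (the NF-Y element, which reads ATTGG on the other strand) and to GGGCGG (the Sp1 or GC box, which reads CCGCCC on the other strand). None of these matches overlap in the printed windows. The windows lie at chr13:119690101-119690350, plus strand, for Hmgcs1, at chr10:76531355-76531604, plus strand, for Lss, at chrX:72918271-72918520, plus strand, for Nsdhl, at chr1:169969206-169969455, minus strand, for Hsd17b7, and at chr3:129532136-129532385, plus strand, for Elovl6.
Hmgcs1: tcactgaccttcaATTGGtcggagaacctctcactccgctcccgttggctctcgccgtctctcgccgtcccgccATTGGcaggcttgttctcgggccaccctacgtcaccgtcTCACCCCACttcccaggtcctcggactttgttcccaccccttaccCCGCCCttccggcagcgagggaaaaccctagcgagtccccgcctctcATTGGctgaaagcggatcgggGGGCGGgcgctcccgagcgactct
Lss: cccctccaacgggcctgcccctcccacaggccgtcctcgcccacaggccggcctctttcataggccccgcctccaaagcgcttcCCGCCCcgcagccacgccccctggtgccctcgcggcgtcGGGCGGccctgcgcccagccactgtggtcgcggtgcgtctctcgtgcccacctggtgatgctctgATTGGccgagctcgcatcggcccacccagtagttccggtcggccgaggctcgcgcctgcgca
Nsdhl: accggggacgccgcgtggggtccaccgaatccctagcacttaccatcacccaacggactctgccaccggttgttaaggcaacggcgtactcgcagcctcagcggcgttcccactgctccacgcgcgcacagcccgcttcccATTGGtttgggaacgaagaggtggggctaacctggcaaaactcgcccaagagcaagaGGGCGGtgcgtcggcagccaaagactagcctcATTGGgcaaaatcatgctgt
Hsd17b7: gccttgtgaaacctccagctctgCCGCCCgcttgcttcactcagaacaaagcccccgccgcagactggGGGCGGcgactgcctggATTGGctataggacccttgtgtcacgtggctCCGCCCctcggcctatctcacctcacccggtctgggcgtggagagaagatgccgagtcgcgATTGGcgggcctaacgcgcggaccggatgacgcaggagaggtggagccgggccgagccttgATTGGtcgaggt
Elovl6: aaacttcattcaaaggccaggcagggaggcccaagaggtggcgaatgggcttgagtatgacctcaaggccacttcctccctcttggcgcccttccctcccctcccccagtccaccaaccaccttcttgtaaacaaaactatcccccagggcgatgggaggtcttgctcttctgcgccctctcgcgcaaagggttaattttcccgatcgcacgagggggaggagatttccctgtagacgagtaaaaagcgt

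Hmgcs1, HMG-CoA synthase, was the member with a match to TCACNCCAC, 137 bases before its start, and it also held 3 CCAAT and 2 GC box matches. In the full windows of 250 bases before and 50 after the start, the sterol regulatory element was found in 1 of the 23 members matched, against 1.44% of 27025 genes. CCAAT was found in 19 of the 23 members (82.6%), against 41.1% of the same genes and 42.9% of the 7644 genes kept among them. The GC box was found in 18 of 23 members (78.3%), against 38.2% of all genes and 71.7% of those kept, so that its share stood close to that of other expressed genes. Both CCAAT and the GC box were found in 16 members (69.6%), against 30.9% of the genes kept. Acaca and Elovl6 held none of the 3 motifs. Nsdhl and Hsd17b7, the members lowest in Kai1-/- PCs relative to WT PCs, held both CCAAT and the GC box, as did Lss, which was among the members that were higher. A match is a run of letters and does not show binding, and a window without one says only that these letters are not in it.

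The labelled cell type was checked against 14 markers of perivascular and mural cells. Acta2, smooth muscle actin, had 3823 RPKM in WT and 2580 RPKM in Kai1-/- PCs, and Pdgfrb, the receptor that marks pericytes, had 44.7 and 31.6. The pericyte markers Rgs5, Kcnj8 and Abcc9 were at or near 0 in both libraries, with a highest RPKM of 0.791. Over all 14 markers, with no filter, 12 were lower in Kai1-/- PCs and 2, Rgs5 and Kcnj8, were higher. Of all 20211 symbols, with no filter, 7643 were lower, 7145 were higher and the rest were equal. The 4 lowest ratios among the 8 markers kept were those of Mcam, at 4.90 and 0.264 RPKM (log2 ratio -3.78), Myh11, at 2.96 and 0.346 (-2.78), Cnn1, at 119.6 and 49.2 (-1.28), and Pdgfra, at 2.01 and 0.854 (-1.15), in WT and Kai1-/- PCs respectively. Of these, Mcam, Myh11 and Pdgfra were below 1 RPKM in Kai1-/- PCs and passed the filter through their WT values, so no count or median of the markers kept is drawn on. The deleted gene Cd82 had 12.8 RPKM in WT and 2.62 RPKM in Kai1-/- PCs, and Gapdh had 4238 and 5997. All 4 Y-linked genes with any value above 0 in WT PCs were at 0 in Kai1-/- PCs. The sex of the animals behind each culture was not given, so sex and genotype cannot be told apart. From the steps between low RPKM values, sequencing depth was estimated at 2.93e+07 reads for WT and 2.68e+07 for Kai1-/- PCs, which gave 153 to 8684 reads per member and library. Each genotype had 1 library, so no difference below was tested against replicates. The intervals given are 95% intervals on reads estimated over each gene's longest transcript. They cover counting error only, and say nothing about other cultures or animals. In bulk RNA, fewer cells of a kind and less RNA per cell cannot be told apart.

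Among the 28 members kept, 21 were higher in the Kai1-/- library and 7 lower, where 55.1% of all genes kept were higher. Taking Kai1-/- over WT, the median log2 ratio was 0.35 for the members, 0.08 for all genes kept, and 0.08 for the 7881 genes within the members' range of mean RPKM. Where a pair of values is given, RPKM in WT PCs comes first and RPKM in Kai1-/- PCs second, with the log2 ratio in parentheses. No member was more than 2-fold higher on the scale of log2(RPKM + 0.1), on which 7.98% of genes were, and 1 member, Hsd17b7, was more than 2-fold lower, as were 7.81% of genes. Past 1.5-fold, a line added after the data were seen, 8 members were higher and 2 lower, against 20.7% and 16.2% of genes. The counting interval of the log2 ratio lay above 0 for 19 members, below 0 for 3 and held 0 for 6. These directions depend on the scaling, because with both libraries scaled to Gapdh 9 of the 28 members were higher (25.2% of all genes kept), and with an equal summed RPKM 10 were (25.98% of all genes kept). Against the median of all genes kept, 21 of the 28 members stood above it. A scaling moves the members and that median together, so this count could hardly change with the scaling and is no check on it.

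**Figure D1:**
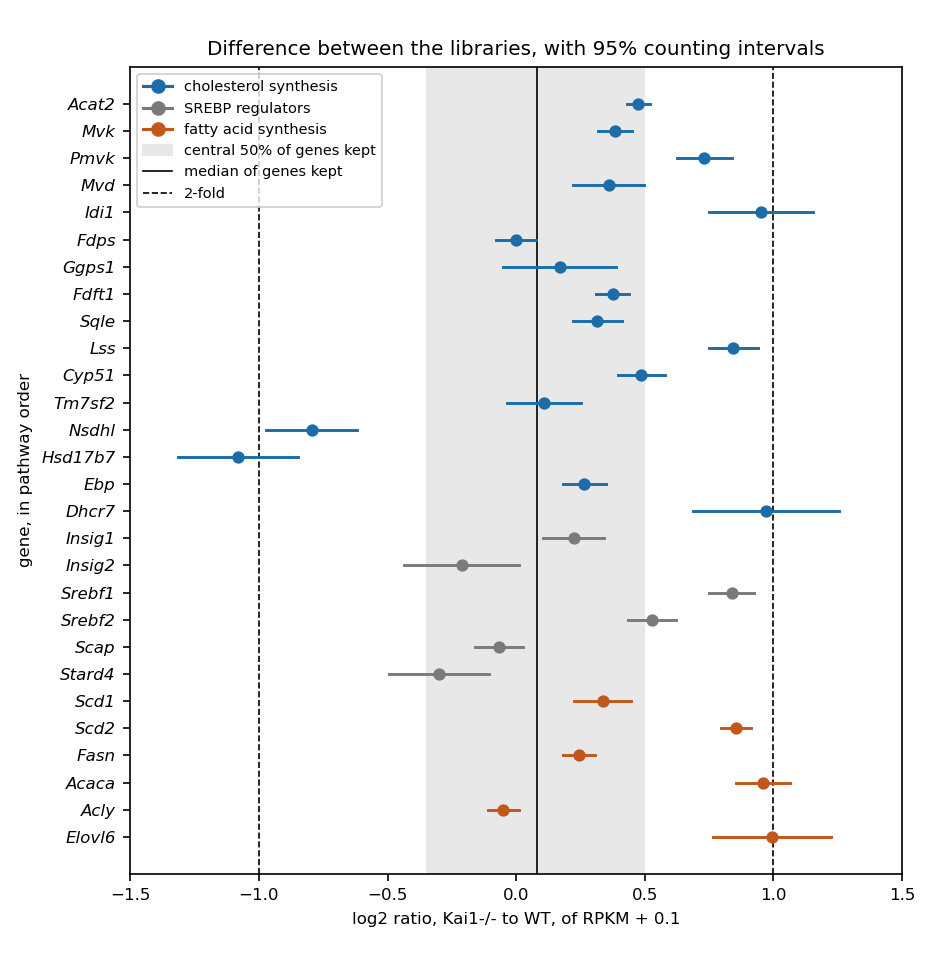
Log2 ratio of Kai1-/- to WT of RPKM + 0.1 (horizontal axis) for the 28 members kept, in pathway order; points are the 2 libraries' ratio, bars the 95% counting intervals, the grey band the central 50% of the 10068 genes kept, the solid line their median and the dashed lines 2-fold. Nsdhl at -0.80 and Hsd17b7 at -1.08 stand to the left of the band, and Srebf2 at 0.53 and 8 members between 0.73 and 0.99 stand to the right of it; scaling to Gapdh or to an equal summed RPKM shifts all points and the band together to the left by about 0.50 and 0.49.

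The early steps of the pathway assemble mevalonate from acetyl-CoA. Acat2, the cytosolic thiolase of the first step, had the highest level of all members in both libraries, at 114.3 RPKM in WT and 158.9 RPKM in Kai1-/- PCs (log2 ratio 0.47 ± 0.05, counting interval), and its ratio was -0.025 scaled to Gapdh and -0.010 with an equal summed RPKM. Of its 31-base windows 45.0% also occurred elsewhere in mm9, so reads of near-identical copies may be part of its value. Hmgcs1, which condenses acetoacetyl-CoA to HMG-CoA, was listed at 0 in both libraries, on 2 rows of each table. Its promoter window had 0 exact matches on the mm9 chromosomes and 2 on unplaced scaffolds, whereas each window of the other 22 members matched once on a chromosome. The neighbours Nim1 and Zfp131 were likewise on 2 rows and at 0, Ccl28 was on 1 row and also at 0, and 4833420G17Rik, nearby on 1 row, had 4.25 RPKM in WT and 7.86 RPKM in Kai1-/- PCs. These 4 neighbours were named after their values were seen. Of the 153 symbols on more than one row, 59.5% were at 0 in every row of both libraries, against 26.6% of symbols on one row. The 0 of Hmgcs1 is therefore given as listed, and no level of HMG-CoA synthase is read from it.

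The enzymes that turn mevalonate into isoprene units were all higher in the Kai1-/- library on the deposited scale, and Mvk and Mvd were lower once scaled to Gapdh or to an equal summed RPKM. Mvk, mevalonate kinase, had 52.2 RPKM in WT and 68.2 RPKM in Kai1-/- PCs (log2 ratio 0.39). Pmvk, phosphomevalonate kinase, had 40.6 and 67.5 (0.73 ± 0.11), the larger difference of the 2 kinases. Mvd, the decarboxylase that yields isopentenyl diphosphate, had 17.2 and 22.1 (0.36). Idi1, the isomerase of that product, had 3.89 and 7.61 (0.95 ± 0.20). Since 85.6% of the 31-base windows of Idi1 also occurred elsewhere in mm9, its value is uncertain. Pmvk and Idi1 stayed higher under both of those scalings.

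The prenyl transferases stood at nearly equal levels in both libraries on the deposited scale, and both were lower in Kai1-/- PCs once scaled to Gapdh (-0.50 for Fdps, -0.32 for Ggps1) or to an equal summed RPKM (-0.49 and -0.31). Fdps, farnesyl diphosphate synthase, had 92.4 RPKM in WT and 92.3 RPKM in Kai1-/- PCs, a log2 ratio within 0.01 of 0 whose counting interval held 0. It had the second highest level of the members, but 82.2% of its windows occurred elsewhere in mm9. Ggps1, which makes the geranylgeranyl diphosphate used to anchor small GTPases, had 5.14 and 5.79 (0.17 ± 0.22). Its interval held 0, and 32.7% of its windows occurred elsewhere in mm9.

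From squalene to lanosterol and its first demethylation, each enzyme was higher in the Kai1-/- library on the deposited scale, and Fdft1 and Sqle were lower once scaled to Gapdh or to an equal summed RPKM. Fdft1, squalene synthase, had 46.6 RPKM in WT and 60.5 RPKM in Kai1-/- PCs (log2 ratio 0.37), and 30.7% of its windows occurred elsewhere in mm9. Its exons overlap those of Ctsb on the opposite strand over 26.9% of its transcript, and the use of strand in counting was not given in the sources used here, so reads of both genes cannot be told apart. Sqle, squalene epoxidase, had 13.3 and 16.6 (0.31). Lss, lanosterol synthase, which closes the sterol rings, had 6.90 and 12.5 (0.84 ± 0.10), a larger difference than those of its neighbours in the pathway. Cyp51, the lanosterol demethylase, had 16.005 and 22.5 (0.49), and Tm7sf2, a sterol reductase, had 20.9 and 22.5 (0.11 ± 0.14), an interval that held 0. Scaled to Gapdh, Lss alone of these 5 stayed higher, at 0.35, with Cyp51 at -0.01; with an equal summed RPKM Lss stood at 0.36 and Cyp51 within 0.01 of 0.

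A pair of enzymes that remove the methyl groups at the fourth carbon of the sterol were lower in the Kai1-/- library. Nsdhl, the decarboxylating dehydrogenase at chrX:70163896-70203853 on mm9, had 12.9 RPKM in WT and 7.37 RPKM in Kai1-/- PCs, 57.3% of WT (log2 ratio -0.80 ± 0.18). Hsd17b7, the keto reductase of the same step at chr1:171879666-171899372, had 3.81 and 1.75, 45.9% of WT (-1.08 ± 0.23), an interval that ran across the 2-fold line. These estimates rest on about 744 and 386 reads for Nsdhl and 493 and 206 reads for Hsd17b7. Of all genes kept, 11.1% had a lower ratio than Nsdhl and 6.98% a lower ratio than Hsd17b7. Neither shared more than 1.62% of its windows with other places in mm9. Sc4mol, the oxidase that acts before both and a gene outside the 29 chosen after its values were seen, had 31.5 and 44.7 (0.50). On the deposited scale the 3 enzymes of the step therefore did not stand on one side. Scaling to Gapdh or to an equal summed RPKM lowers ratios by about 0.50 or 0.49, about the size of the Sc4mol ratio. Nsdhl is X-linked. The X-linked genes kept had a median log2 ratio of 0.08, and 10.7% of these 270 genes had a lower ratio than Nsdhl. Every other scaling tried lowers the Kai1-/- values and a pseudocount keeps the sign, so these settings could not have turned either gene. With a pseudocount of 1 RPKM Hsd17b7 stood at -0.81 and was no longer past 2-fold.

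The last steps were again higher on the deposited scale, although Ebp was lower once scaled to Gapdh or to an equal summed RPKM. Ebp, the sterol isomerase, had 48.4 RPKM in WT and 58.2 RPKM in Kai1-/- PCs (log2 ratio 0.27). Dhcr7, which makes cholesterol from 7-dehydrocholesterol, had 1.99 and 3.99 (0.97 ± 0.28), about 153 and 279 reads. Its ratio of RPKM was 2.01, and it stood under 2-fold only because 0.1 was added to both values. Over the 16 cholesterol synthesis enzymes kept, 13 were higher, with a median log2 ratio of 0.37 against 0.08 for all genes kept; scaled to Gapdh or to an equal summed RPKM the medians of these enzymes were -0.13 and -0.12, and those of all genes kept -0.41 and -0.39.

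**Figure D2:**
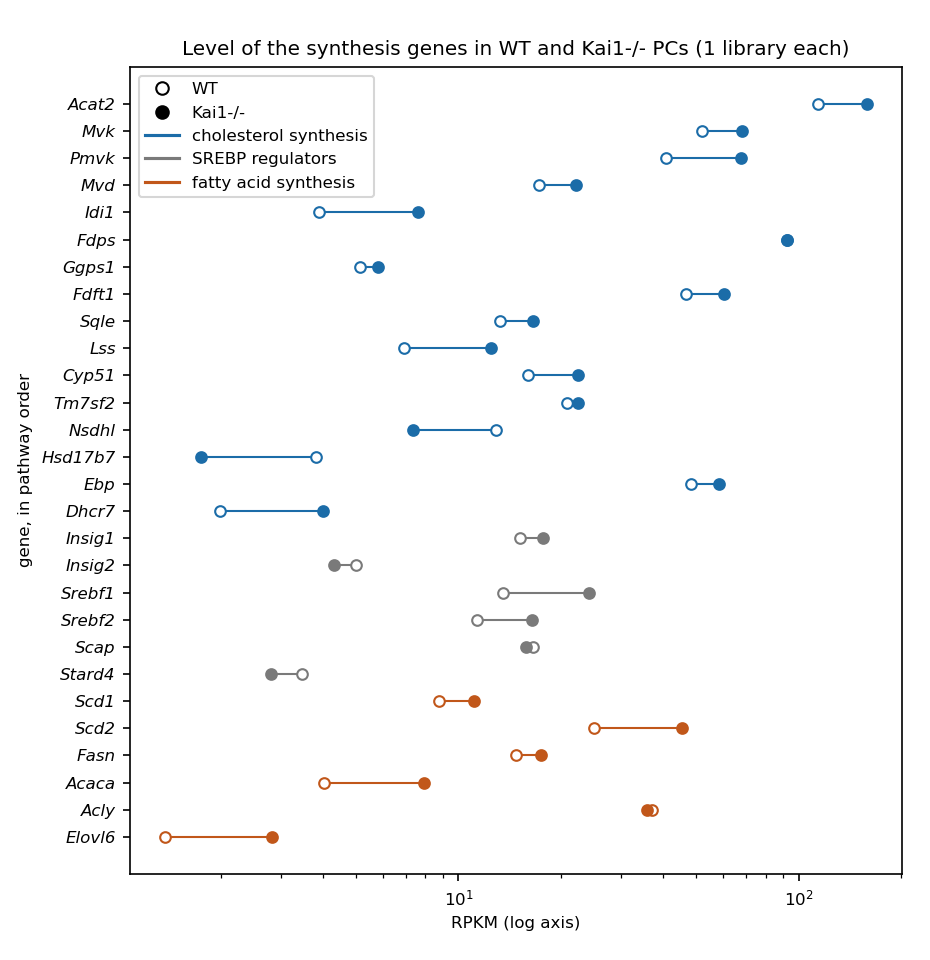
RPKM on a log axis of the 28 members kept, in pathway order; open points are the WT library and filled points the Kai1-/- library, coloured by set. Filled points lie to the right of the open ones for 21 members on the deposited scale shown (9 once scaled to Gapdh, 10 with an equal summed RPKM), and Acat2 and Fdps have the highest levels in both libraries.

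Of the 6 regulators 3 were higher and 3 lower, with a median log2 ratio of 0.08, and Insig1 was lower too once scaled to Gapdh or to an equal summed RPKM. Srebf1, which encodes the SREBP factor best known for fatty acid genes, had 13.5 RPKM in WT and 24.2 RPKM in Kai1-/- PCs (0.84 ± 0.09). Srebf2, which encodes the SREBP factor best known for cholesterol genes, had 11.4 and 16.4 (0.53). Scap, which escorts both factors to the Golgi, had 16.6 and 15.9 (-0.07), with an interval that held 0. Over 18.6% of the transcript of Scap, its exons overlap those of another gene on the opposite strand. Of the retention proteins, Insig1 had 15.2 and 17.7 (0.22) and Insig2 had 5.01 and 4.31 (-0.21 ± 0.22). Stard4, a carrier of sterol between membranes, had 3.48 and 2.81 (-0.30 ± 0.19). Both transcription factor genes were thus the highest of the set relative to WT; Srebf1 stayed higher under every scaling tried, and Srebf2 stood at 0.03 scaled to Gapdh. The levels of mRNA do not show how much SREBP is cut and active.

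Of the 6 fatty acid genes 5 had a higher level in the Kai1-/- library, and their median log2 ratio of 0.60 was the highest of the 3 sets, although Scd1 and Fasn were lower once scaled to Gapdh or to an equal summed RPKM. Elovl6, which lengthens palmitate, had the lowest level of the members in WT PCs, with an RPKM of 1.38 against 2.84 in Kai1-/- PCs (0.99 ± 0.23), a ratio of RPKM of 2.06. Acaca, acetyl-CoA carboxylase, the committed step, had 4.02 and 7.91 (0.96 ± 0.11), but 72.3% of its windows occurred elsewhere in mm9. Scd2, a desaturase that makes oleate, had 24.999 and 45.3 (0.85 ± 0.06), the narrowest interval of the large differences. Its paralogue Scd1 had 8.80 and 11.1 (0.34). Fasn, fatty acid synthase, had 14.7 and 17.5 (0.25), and Acly, which supplies cytosolic acetyl-CoA to both pathways, had 37.1 and 35.8 (-0.05) with an interval that held 0. Scaled to Gapdh, Elovl6, Acaca and Scd2 stayed higher and the median of the set was 0.10. Without Acaca the median was 0.34, under the 0.36 of the cholesterol enzymes without their members with over 40% of windows elsewhere. With a mean of 5 RPKM or more asked of each gene it was 0.34 as well, the lowest of the 3 sets, against 0.37 for the cholesterol enzymes and 0.38 for the regulators, so the order of the sets rests on the members chosen.

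The order of the members by level was largely the same in both libraries (Spearman's rho 0.955 over 28 genes, a description since both libraries share the genes' lengths and copies), and 4 of the 5 highest members were shared. The signed log2 ratio did not go with the mean level (rho -0.01), a value that does not measure the size of the ratio. Hsd17b7 and Elovl6, with the lowest and highest ratios of the members, had low means of 2.78 and 2.11 RPKM. Stard4, also low at 3.14 RPKM, had a ratio of -0.30. Their summed RPKM was 653 in WT PCs and 830 in Kai1-/- PCs, 27.2% higher. As a share of all RPKM it was 0.0738% in WT PCs and 0.0670% in Kai1-/- PCs, so the direction turned with the total used. Ribosomal protein genes took 37.6% of summed RPKM in WT PCs and 49.1% in Kai1-/- PCs. With those genes left out of the total, the share of the members was 0.118% and 0.132%.

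**Figure D3:**
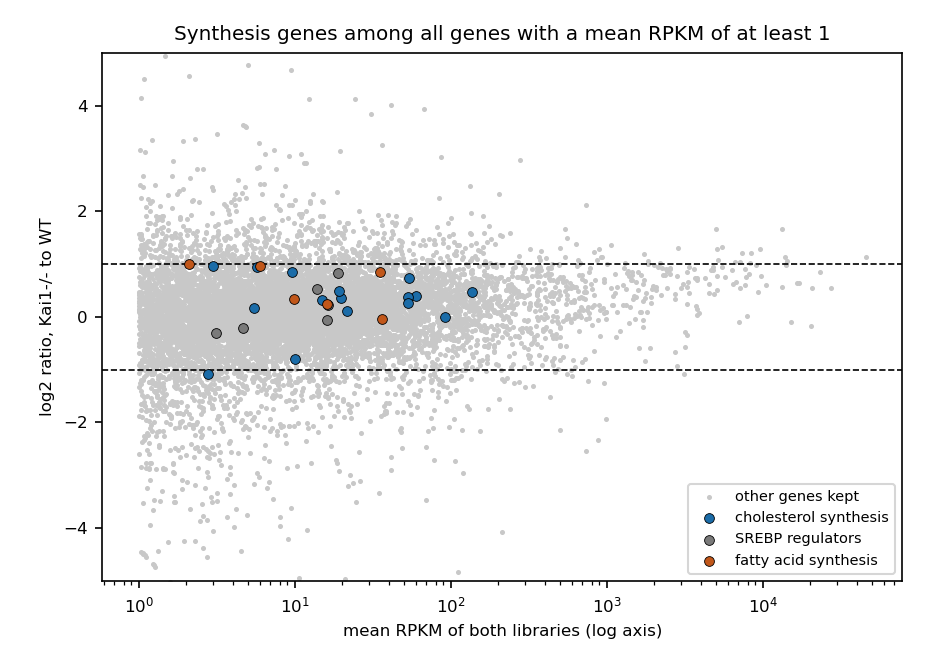
Log2 ratio of Kai1-/- to WT (vertical axis) against mean RPKM of both libraries (log axis) for the 10068 genes kept, with the members coloured by set and dashed lines at 2-fold; 20 genes beyond a log2 ratio of 5 in either direction are outside the frame. The members lie between -1.08 and 0.99, inside the cloud of other genes at every level.

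The other genes of the pathway were taken from lists compiled from general knowledge. Of 17 other sterol pathway genes kept, 12 were higher, with a median log2 ratio of 0.22. Erlin1, which with Erlin2 helps degrade sterol-regulated proteins in the endoplasmic reticulum, was the one more than 2-fold higher, at 3.32 RPKM in WT and 7.49 RPKM in Kai1-/- PCs (1.15). The non-sterol isoprenoid genes had 7 of 12 higher and a median of 0.19, with none past 2-fold. Of these 12, 1 passed the filter through its WT value and was below 1 RPKM in Kai1-/- PCs. Of 22 other fatty acid synthesis genes kept, 15 were higher, with a median of 0.22 and none past 2-fold in either direction. Fatty acid oxidation genes, the opposite route, had 12 of 24 higher, a median of 0.02 and none past 2-fold. These counts are on the deposited scale, and scaling to Gapdh or to an equal summed RPKM moves every gene down by about 0.50 or 0.49. Against the median of all genes kept, which moves with them, 11 of the 17 other sterol genes stood above it, as did 7 of 12 isoprenoid, 14 of 22 other fatty acid synthesis and 10 of 24 oxidation genes.

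Genes that take up, move and remove cholesterol had a lower median than the synthesis genes. Of 21 kept, 14 were lower in the Kai1-/- library, with a median log2 ratio of -0.21 against 0.37 for the cholesterol synthesis enzymes. Vldlr, a lipoprotein receptor, had 4.04 RPKM in WT and 1.10 RPKM in Kai1-/- PCs (-1.79), and Cyp46a1, a cholesterol hydroxylase, had 1.73 and 0.547, 31.7% of WT. Cyp46a1 was below 1 RPKM in Kai1-/- PCs and passed the filter through its WT value, the only 1 of the 21 to do so. It is counted among the 14 lower genes. Lrp8, another lipoprotein receptor of the same family as Vldlr, went the other way, at 1.78 and 5.23, 293% of WT, as did Stard10, a phospholipid carrier, at 6.07 and 14.4 (1.24). Chosen after their values were seen, Npc2, which hands cholesterol out of the lysosome, had 194 and 108 (-0.84) and Soat1, which esterifies cholesterol for storage, had 6.61 and 3.46 (-0.91). The difference between the lists was not tested, and another scaling shifts both lists by about the same amount, with 7 of the 21 genes above the median of all genes kept on the deposited scale.

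**Figure D4:**
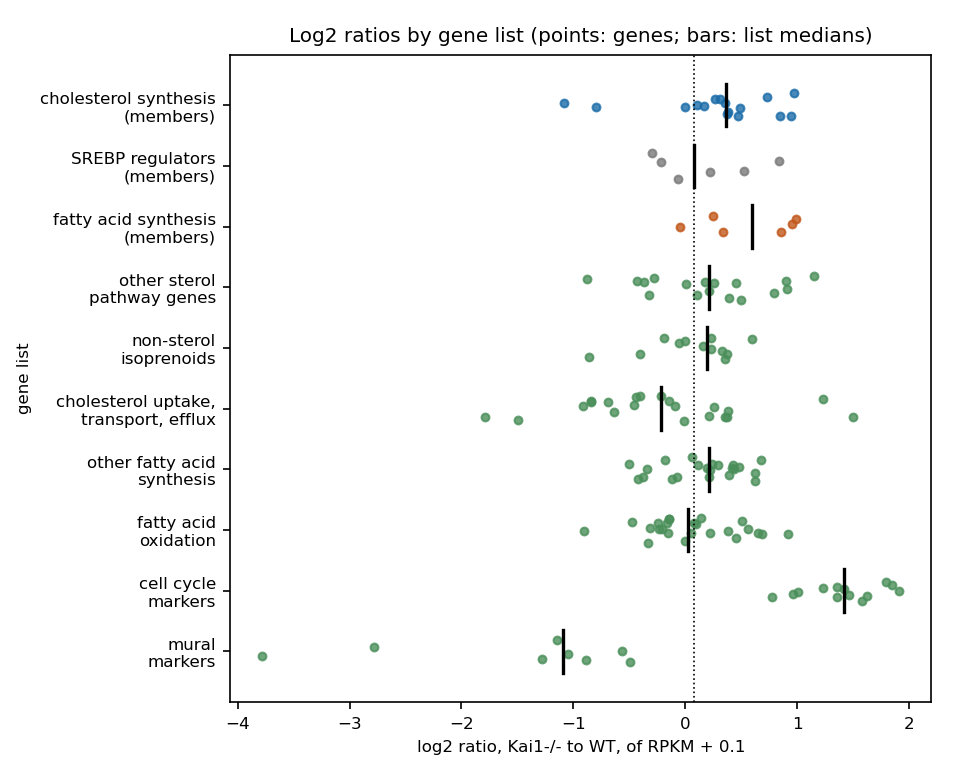
Log2 ratio of Kai1-/- to WT of RPKM + 0.1 (horizontal axis) for the genes kept in each list (rows); points are genes, bars list medians and the dotted line the median of all genes kept, 0.08. The 13 cell cycle genes lie to the right, around a median of 1.42. Of the 8 perivascular and mural markers kept, 3 passed the filter through WT alone, so nothing is read from the place or the bar of that list. Scaled to Gapdh or to an equal summed RPKM every point and the dotted line shift left by about 0.50 or 0.49.

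Markers of other states and cell types also differed between these libraries. All 13 cell cycle markers were higher in Kai1-/- PCs (55.1% of all genes kept), 11 of them more than 2-fold (7.98% of all genes kept). Their median log2 ratio was 1.42, the lowest was 0.78, and their summed RPKM was 245 in WT PCs and 667 in Kai1-/- PCs. These values are on the deposited scale. Scaling to Gapdh or to an equal summed RPKM lowers each ratio by about 0.50 or 0.49, so the count past 2-fold depends on the scale. The largest ratios were those of the cell division genes Ccnb1 (18.7 and 70.8 RPKM, log2 ratio 1.92), Cdk1 (23.7 and 85.5, 1.85), Mki67 (5.43 and 19.1, 1.80) and Aurkb (5.17 and 16.2, 1.63). Their part in the levels of the synthesis genes was not tested. The adipocyte markers Adipoq, Cidec, Lep, Cd36 and Cfd were listed at 0 in both libraries. Plin1 had 0.0407 RPKM in WT and 0 RPKM in Kai1-/- PCs. Other markers on the list were detected. Of 11 adipocyte markers 3 passed the filter. These were Fabp4 at 10.6 and 4.53 (-1.20), Pparg at 2.49 and 2.22 (-0.16), and Retn at 0 in WT PCs and 2.17 in Kai1-/- PCs. Below the filter, Cebpa had 0.484 and 1.38 RPKM (1.34) and Lpl had 1.04 and 0.0586 (-2.85). The list's summed RPKM was 14.6 in WT PCs and 10.4 in Kai1-/- PCs. The endothelial list had 2 of 10 markers kept (summed RPKM 4.50 and 8.41), the macrophage list 3 of 10 (19.1 and 14.7) and the keratinocyte list 1 of 9 (4.84 and 4.06). Cdh5, Emr1 and Krt5, defining genes of the 3 cell types, were at or near 0, but other markers on these lists were not. The macrophage markers Csf1r, at 11.7 and 2.66 RPKM (-2.10), and Lyz2, at 3.44 and 1.09 (-1.57), were lower in Kai1-/- PCs, and Cd14, at 1.98 and 10.3 (2.32), was higher. The endothelial marker Egfl7 had 2.28 and 7.39 (1.65), and the keratinocyte marker Sprr1a had 3.05 and 3.38 (0.14). Their part in the results was not tested.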

How the data were processed

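Libraries of total RNA from 1 WT and 1 Kai1-/- PC culture were sequenced. Reads were mapped on mm9 by the authors (TopHat 2.0.9, Bowtie), who deposited 1 RPKM value per RefSeq gene and library; total reads and the use of strand were not given in the sources used here. Symbols were taken from the tables, 38 of 20462 rows that name no gene were dropped, and symbols on several rows were averaged. Log2 ratios used log2(RPKM + 0.1), which understates the difference of low genes, and genes averaging 1 RPKM or more were kept. Members, lists and motifs were chosen with earlier results of these data known. All 29 members, Cd82 and Gapdh are named, and from the lists the genes kept that were past 2-fold, up to 4 in each direction, with further marker genes where they check the label or differ with a result. With 1 library per genotype no test was made. Depth was estimated from the steps between low RPKM values, with transcripts from GENCODE M1, and the estimate was tested on simulated data. Of those values 80.6% (WT) and 78.1% (Kai1-/-) lay within 0.15 of a whole read. Reads of each gene were taken over its longest transcript. Where the deposited RPKM used a shorter length, these reads are too high and the intervals too narrow. The 31-base windows of the longest transcripts were searched in mm9, and promoters came from RefSeq. Python 3.11.15, numpy 2.4.6, pandas 2.3.3, scipy 1.17.1, pysam 0.24.0 and matplotlib 3.10.9 were used.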

Additional observations from a re-analysis of the deposited data

How the results depend on the processing

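No paired analysis was possible because WT and Kai1-/- PCs had 1 library each, and no replicate could be left out. Of the 196 recomputed log2 ratios of single members, 24 changed sign, 12 of them with scaling to Gapdh, 11 with equal summed RPKM and 1 with an equal upper quartile. The count of members more than 2-fold higher was 2 with a pseudocount of 0.01 RPKM and 2 with none, a setting added later. Members more than 2-fold lower numbered 0 with a pseudocount of 1 RPKM or a mean RPKM of at least 5, and 2 with scaling to Gapdh or equal summed RPKM. With the 1.5-fold line the counts were 8 and 2. The medians of cholesterol synthesis, regulator and fatty acid members were 0.24, -0.049 and 0.47 with an equal upper quartile, -0.13, -0.42 and 0.10 scaled to Gapdh, and -0.12, -0.40 and 0.11 with equal summed RPKM. The fatty acid median was 0.50 with a pseudocount of 1 RPKM. At a mean RPKM of at least 5 the regulator median was 0.38 and the fatty acid median 0.34. Without the 5 members with over 40% of windows elsewhere in mm9, an alternative chosen after seeing the data, the regulator and fatty acid medians were -0.066 and 0.34. The share of the members in summed RPKM was 0.118% in WT PCs and 0.132% in Kai1-/- PCs without ribosomal protein genes in the total, and 0.0609% and 0.0542% without Acat2.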
